A study of Homo sapiens with 24 samples.

Results

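The genes described here are 10 that encode proteins of the centromere, namely CENPA, CENPB, CENPC1, CENPE, CENPF, CENPH, CENPI, CENPK, CENPM and CENPN. They are 10 of the 22847 gene names tested, and they were chosen by their symbols after CENPA had been seen among the largest falls at 10 Gy, so they were selected on these same data. The members are read on 16 probes of the array, all of which passed the filter on dim probes. CENPA, CENPE, CENPH, CENPK and CENPM have 1 probe each, CENPB, CENPC1, CENPF and CENPI have 2, and CENPN has 3.

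The arrays measured RNA of the U87 MG glioblastoma line, collected 24 hours after proton irradiation. Si306 is an inhibitor of SRC family kinases and was given at 10 µM. Each array carried a treated RNA in Cy5 and its control RNA in Cy3, with no exchange of the dyes. U87 2 Gy and U87 10 Gy were set against untreated U87 cells, while U87 Si306 + 2 Gy was set against U87 cells given 2 Gy alone and U87 Si306 + 10 Gy against U87 cells given 10 Gy alone. All groups therefore share the cell line and the harvest time, and no group received Si306 without protons. The 6 scans labelled as biological replicates of a configuration come from only 2 arrays, apart from 2 scans that lie on an array of another dose, so n is 2 arrays for each configuration. The labels thus disagree with the arrays, and whether the 2 arrays hold separate cultures is open, so p-values measure only the spread between arrays, which may be technical.

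Values of RNA with the same label differed between the 2 slides. Slide 1 holds the arrays of proton irradiation alone and slide 2 those with Si306, and 2 Gy RNA is in Cy5 on slide 1 and in Cy3 on slide 2. The epithelial marker EPCAM, listed on the array as TACSTD1, had a log2 intensity of 6.08 and 6.40 in the 2 Gy RNA of slide 1, against 10.96 and 10.88 in the 2 Gy RNA of slide 2. The endothelial marker PECAM1 read 6.11 and 6.05 in the 2 Gy RNA of slide 1, against 9.15 and 9.06 on slide 2. PECAM1 was well above background on 0 of 4 arrays of slide 1 and on 4 of 4 of slide 2, and EPCAM on 3 of 4 and on 4 of 4. In the 10 Gy RNA, EPCAM read 6.52 and 6.51 on slide 1 and 10.91 and 10.72 on slide 2. Both markers were thus low in every RNA of slide 1 and high in every RNA of slide 2, controls included, with no overlap. CD44 moved the other way, from 15.23 and 15.17 in the 2 Gy RNA of slide 1 to 12.96 and 12.82 on slide 2. Of the glioma line markers, VIM, CD44, FN1, NES and GFAP were well above background on all 8 arrays, and S100B on 1 of 8. Among the other markers, PTPRC, CDH1 and SYP were above background on 0 of 8 arrays and CD3E, with a log2 intensity of at most 6.79, on 8.

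Over all genes the mean level of the 2 Gy RNA on slide 2 minus that on slide 1 had an SD of 1.24 and a median of -0.05. For CENPA this difference was 2.18 in the 2 Gy RNA and 2.60 in the 10 Gy RNA. Over both dyes CENPA read 7.71 to 9.29 on slide 1 and 10.01 to 10.48 on slide 2, and EPCAM 5.82 to 6.52 and 10.72 to 11.30. Slide and RNA preparation cannot be told apart, and their part and that of the dye were not tested. Ratios within an array do not use this difference between slides. Fits on the arrays of each slide alone, which leave every mean as it is and can change only the variance, gave the same counts of called members as the fit on all arrays, 5 for U87 2 Gy, 9 for U87 Si306 + 2 Gy and 7 for U87 Si306 + 10 Gy. Of all genes these fits called 54.7%, 67.4% and 63.3%. Values of the slides are not added together here, and a difference between proton irradiation alone and its combination with Si306 cannot be told apart from a difference between slides.

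Centromeres are the chromosome regions on which kinetochores, the structures that hold spindle microtubules, are built. CENPA is a variant of histone H3 that marks them, and a constitutive network of further proteins connects its nucleosomes to the outer kinetochore. Transcripts of several of these genes, CENPA, CENPE and CENPF among them, peak late in the cell cycle.

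The scans of 1 array differed from each other with an SD over genes of 0.0736 at the median, the scans of the 2 arrays of a configuration with 0.106, and scans of different configurations with 0.394. A scan labelled U87 2 Gy replicate 5 lies, by its header, on a U87 10 Gy array, and a scan labelled U87 10 Gy replicate 2 lies on a U87 2 Gy array. The first differed from the scans of the array that holds it by 0.0770 and from those of its label by 0.178. For the second the values were 0.0756 and 0.170. Both resemble the array they lie on, and both were left out of the values below.

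**Figure D1:**
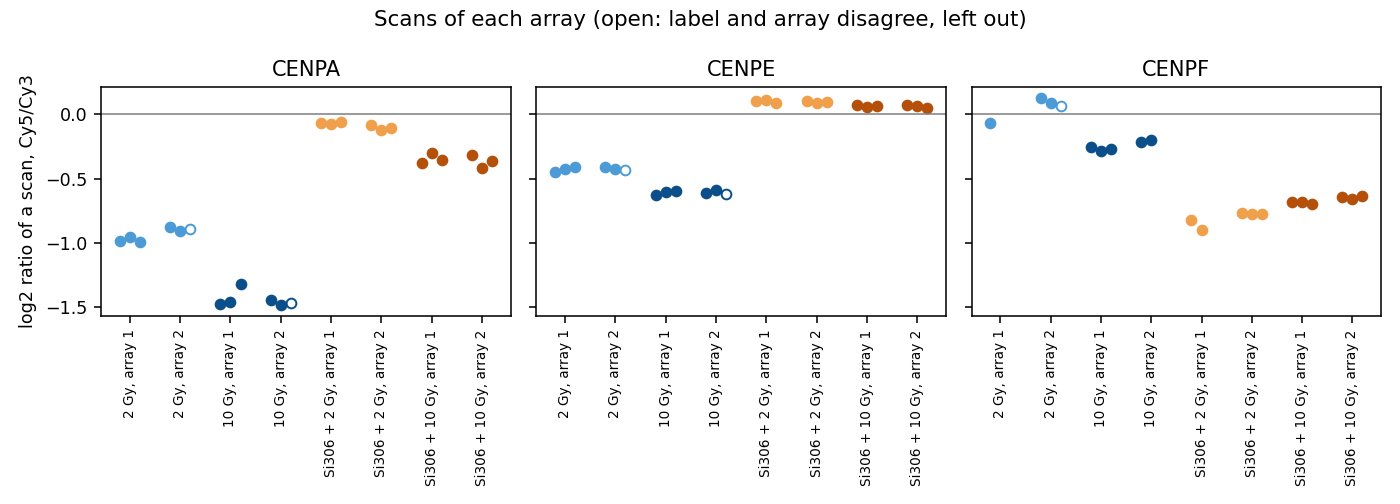
Log2 ratio of Cy5 over Cy3 (vertical axis) for CENPA, CENPE and CENPF in each scan whose spot was free of outlier marks, grouped by array, with open points for the 2 scans left out. For CENPA the scan labelled U87 10 Gy replicate 2 lies at -0.89, beside the U87 2 Gy arrays, and the scan labelled U87 2 Gy replicate 5 at -1.47, beside the U87 10 Gy arrays; the sign of these falls holds under loess, the scanner software and median centring and turns positive in the separate-channel model.

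Directions were read under loess, the scanner software's own ratio, median centring and a separate-channel model that links the slides. After median centring the median of all genes stood at 0.27 for U87 2 Gy, 0.23 for U87 10 Gy, 0.44 for U87 Si306 + 2 Gy and 0.26 for U87 Si306 + 10 Gy, against 0.02, 0.02, 0.04 and 0.03 with loess, and values after median centring are given relative to that median. The separate-channel model estimates the dye effect from RNA present in Cy5 on slide 1 and in Cy3 on slide 2. By this construction it takes the difference between the slides described above as a dye effect, and the SD of its values over all genes was 1.20 for U87 2 Gy, against 0.27 with loess. The sign it gives in a configuration can therefore follow that difference. In the 2 Gy RNA the difference was 1.23 for CENPK, 0.56 for CENPC1 and -0.81 for CENPM. An equal or opposite sign in this model is thus no separate check of a configuration's direction.

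The first comparison asks how proton irradiation alone at 2 Gy changed these transcripts. CENPA, the centromeric histone itself, had a log2 ratio of -0.98 and -0.89 on the 2 arrays. CENPE, a kinesin motor of the outer kinetochore, had -0.43 and -0.42. Both genes were below their control on each array, and the ranges of these genes did not overlap. CENPB, which binds a sequence box in alpha satellite DNA, had 0.50 and 0.55. CENPK, a subunit of the constitutive network, had 0.19 and 0.29. CENPM, another subunit of that network, had 0.11 and 0.10. These 3 genes were above their control on each array, with CENPB highest and no overlap with the negative values.

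Of the 10 members, 3 were called higher and 2 lower at U87 2 Gy. Over all genes tested, 32.2% were called higher and 25.0% lower, and a share near the background is not a result. At a 2-fold change 0 members were called by limma, against 0.727% of all genes, and 6 members had an unadjusted p under 0.05. The members' median was 0.03 and that of all genes 0.02, but the members' median was -0.03 by the scanner software and -0.02 or 0.09 without 1 of the arrays, so it has no clear direction. The calls depend on marked outlier spots being kept out of the background fit, an order chosen after values of a first fit were seen. With the background fitted on every spot, limma called 0 members here, and 0 at an unadjusted p under 0.05, both when all marked spots were left out afterwards and when those marked for their local background alone were kept. In the latter fit 13.4% of all genes were called, against 57.2% in the reported fit, so calls fell over the whole array too. There the 2 arrays of CENPA stood at -0.44 and -0.15. In both fits on every spot the mean of CENPA was -0.29 (adjusted p 0.796 and 0.795, where the other alternatives began at 3.80e-17).

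CENPA fell by 0.94 (SE 0.03, 2 of 2 arrays, 1.92-fold lower, adjusted p 6.11e-09), with -1.16 by the scanner software and -0.78 with median centring, but 1.39 in the separate-channel model. In a bulk culture, fewer cells in the phase that makes such a transcript and less RNA per cell cannot be told apart. CENPE fell by 0.42 (SE 0.03, 2 of 2 arrays, 1.34-fold lower, adjusted p 7.03e-07), with -0.53 by the scanner software and -0.19 with median centring, but 0.93 in the separate-channel model. CENPB rose by 0.52 (SE 0.04, 2 of 2 arrays, 1.44-fold, adjusted p 1.71e-06), with 0.65 by the scanner software and 0.54 with median centring, but -0.20 in the separate-channel model. CENPK rose by 0.24 (SE 0.04, 2 of 2 arrays, 1.18-fold, adjusted p 0.000556) and was positive under all 4 scalings, with 0.29, 0.30 and 1.37 in the other 3. CENPM rose by 0.10 (SE 0.03, 2 of 2 arrays, adjusted p 0.0178), with 0.08 by the scanner software and 0.23 with median centring, but -0.81 in the separate-channel model.

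The remaining members were not called at 2 Gy on their brightest probes. The second probes of CENPC1 and CENPF were called lower there, as given below. CENPC1, which ties CENPA nucleosomes to the outer kinetochore, had a mean of 0.08 (adjusted p 0.0590, 2 of 2 arrays above 0). CENPF, a large coiled-coil protein of the kinetochore corona, had values of -0.07 and 0.11 on its arrays (mean 0.02, adjusted p 0.700, 1 of 2 arrays above 0). CENPH and CENPI, subunits of the constitutive network, had means of -0.05 (adjusted p 0.245, 2 of 2 arrays below 0) and -0.06 (adjusted p 0.255, 2 of 2 arrays below 0). CENPN, which reads the CENPA nucleosome, had a mean of 0.05 (adjusted p 0.285, 2 of 2 arrays above 0). A p above the threshold does not show that these transcripts were level with their control. The controls of U87 2 Gy and U87 10 Gy are the same untreated RNA by label, so these configurations are not independent of each other.

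**Figure D2:**
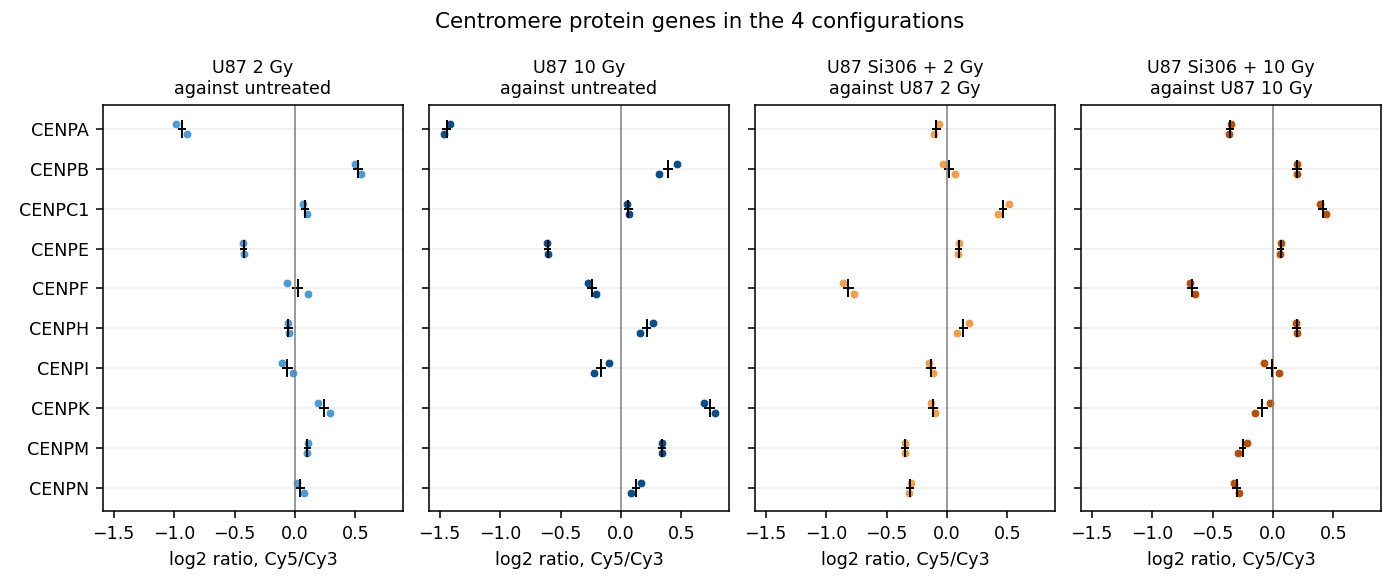
Log2 ratio of Cy5 over Cy3 after loess (horizontal axis) for the 10 members in each configuration; points are the 2 arrays, ticks the mean and bars its SE. CENPA lies lowest at U87 2 Gy (-0.94) and U87 10 Gy (-1.44) and CENPF lowest at U87 Si306 + 2 Gy (-0.82) and U87 Si306 + 10 Gy (-0.67). Of these signs, those of CENPA turn positive in the separate-channel model. That of CENPF turns positive in that model at U87 Si306 + 10 Gy (0.07), and with median centring at both doses before subtraction of the all-gene median.

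U87 10 Gy is described without a test, since the members were selected on it. CENPA had -1.42 and -1.47 on its arrays, below both of its U87 2 Gy values. With the background fitted on every spot it had -1.41 and -0.20, against -0.44 and -0.15 at U87 2 Gy, so the doses overlapped. In the reported fit its mean was -1.44, or 2.72-fold lower, at place 3 from the lowest of 22846 genes, among which 33 were at or below -1 and 188 at or above 1. It was -1.75 by the scanner software and -1.32 with median centring, but 1.02 in the separate-channel model. CENPE had -0.61 and -0.60, also below its values at 2 Gy, with -0.74 by the scanner software and -0.41 with median centring, but 0.78 in the separate-channel model. With the background fitted on every spot CENPE had -0.61 and -0.15, against -0.23 and -0.11 at 2 Gy, so the doses overlapped. CENPK stood at the other end, at 0.69 and 0.78, and its mean of 0.73, or 1.66-fold, was positive under all 4 scalings (0.86, 0.83 and 1.66 in the other 3). With the background fitted on every spot its arrays lay far apart, at 0.68 and 0.08.

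Among the other subunits of the network, CENPM had 0.34 on each array at U87 10 Gy and CENPH had 0.27 and 0.16, above 0 under loess, the scanner software and median centring and below 0 in the separate-channel model (-0.65 and -0.86). CENPI had -0.10 and -0.23, below 0 except in the separate-channel model, which gave 1.18. Of the proteins that contact CENPA nucleosomes, CENPN had 0.16 and 0.09 and was positive under all 4 scalings. CENPC1 had 0.05 and 0.07, and the scanner software gave -0.01. CENPB had 0.47 and 0.31, with -0.29 in the separate-channel model. CENPF had -0.27 and -0.21, with 0.10 for median centring and 0.51 for the separate-channel model. With the background fitted on every spot CENPM had 0.34 and 0.04, CENPH 0.27 and 0.11, CENPI -0.10 and -0.01, CENPC1 0.05 and 0.01, and CENPB 0.47 and 0.02. CENPN (0.16 and 0.10) and CENPF (-0.27 and -0.23) moved little in that fit. The values that follow are again those of the reported fit. The members' median was 0.09, that of all genes 0.02, and 6 of 10 members were above 0.

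The value at 10 Gy minus that at 2 Gy was -0.51 for CENPA and 0.49 for CENPK, again without a test. The sign was the same under all 4 scalings for both genes, with -0.59, -0.58 and -0.37 for CENPA and 0.57, 0.48 and 0.29 for CENPK. This difference uses the arrays of slide 1 alone with loess, the scanner software and median centring. With the background fitted on every spot CENPK had 0.07 and 0.03 at 2 Gy and 0.68 and 0.08 at 10 Gy. In that fit the CENPA values of the doses overlapped.

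In Cy3, the untreated RNA gave CENPA log2 intensities of 9.27, 9.18, 9.29 and 9.18 on the 4 arrays of slide 1. In Cy5 the 2 Gy RNA gave 8.28 on both arrays and the 10 Gy RNA 7.87 and 7.71. The irradiated RNA was below the untreated RNA on every array of this slide with no overlap, within a design where dye and treatment coincide. On slide 2, the 2 Gy RNA gave 10.45 and 10.48 and the 10 Gy RNA 10.36 and 10.43, both in Cy3. These controls lay close together, whereas on slide 1 the same doses were apart, and the arrays of slide 2 were not designed to compare the doses.

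The next comparison asks what Si306 adds to 2 Gy. CENPF had log2 ratios of -0.86 and -0.77 against 2 Gy alone. CENPM had -0.35 on both arrays. CENPN had -0.30 and -0.31. All of these were below 0 on each array, CENPF farthest, with no overlap with the others. CENPC1 had 0.51 and 0.42, the highest pair of the members.

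At U87 Si306 + 2 Gy 3 members were called higher and 6 lower, where 38.6% of all genes tested were called higher and 27.9% lower. At a 2-fold change limma called 0 members and 0.727% of all genes, and 9 members had an unadjusted p under 0.05. The members' median was -0.10 and that of all genes 0.04. Relative to all genes it turned to 0.24 for median centring and 0.44 for the separate-channel model. Without either of its own arrays fewer members were called, as were fewer of all genes, in a fit that leaves 1 array there. The members' median then stood at -0.10 in both cases. With the background fitted on every spot the count of 9 became 3, with CENPC1, CENPF and CENPN still called. The share of all genes called fell to 25.6% to 25.7%, from 66.5%.

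CENPF fell by 0.82 (SE 0.04, 2 of 2 arrays, 1.76-fold lower, adjusted p 7.34e-08), with -0.75 by the scanner software, -0.06 for median centring and -0.11 when the channels were fitted apart. The size did not hold. The sign held, but for median centring only after subtraction of the all-gene median, and it was reversed before that. CENPM fell by 0.35 (SE 0.03, 2 of 2 arrays, 1.27-fold lower, adjusted p 3.62e-06) and was negative under all 4 scalings, with -0.66, -0.54 and -1.28 in the other 3. With the background fitted on every spot the CENPM arrays stood at -0.05 and -0.13, and the gene was not called. CENPN fell by 0.30 (SE 0.03, 2 of 2 arrays, 1.24-fold lower, adjusted p 1.72e-05), with -0.33 by the scanner software and -0.23 in the separate-channel model, but 0.31 with median centring. CENPC1 rose by 0.47 (SE 0.03, 2 of 2 arrays, 1.38-fold, adjusted p 6.56e-07) and was positive under all 4 scalings, with 0.44, 0.82 and 1.00 in the other 3.

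The other calls at U87 Si306 + 2 Gy were small. CENPH rose by 0.13 (adjusted p 0.00869, 2 of 2 arrays), with -0.85 in the separate-channel model. CENPE rose by 0.10 (adjusted p 0.0134, 2 of 2 arrays) and was positive under all 4 scalings. CENPA fell by 0.09 (adjusted p 0.0455, 2 of 2 arrays), with 0.32 for median centring and 2.27 for the separate-channel model. CENPI fell by 0.13 (adjusted p 0.0198, 2 of 2 arrays), with 1.17 in the separate-channel model. CENPK fell by 0.12 (adjusted p 0.0305, 2 of 2 arrays), with 0.17 for median centring and 0.95 for the separate-channel model. CENPB was not called (mean 0.02, adjusted p 0.704, 1 of 2 arrays above 0).

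With Si306 at 10 Gy, CENPA had log2 ratios of -0.35 and -0.37 against 10 Gy alone. CENPF had -0.69 and -0.65. CENPM had -0.21 and -0.29. CENPN had -0.32 and -0.28. These genes were below 0 on each array, CENPF apart from the other 3. CENPC1 had 0.39 and 0.44, above CENPB and CENPH.

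At U87 Si306 + 10 Gy 3 members were called higher and 4 lower, against 35.2% and 27.2% of all genes tested. At a 2-fold change limma called 0 members and 0.372% of all genes, and 7 members had an unadjusted p under 0.05. The members' median was -0.05 and that of all genes 0.03, and relative to all genes it turned to 0.11 for median centring and 0.51 for the separate-channel model. With the background fitted on every spot the count of 7 became 3, again CENPC1, CENPF and CENPN. Of all genes 15.9% to 16.1% were called there, against 62.4% in the reported fit.

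CENPF fell by 0.67 (SE 0.04, 2 of 2 arrays, 1.59-fold lower, adjusted p 3.90e-07), with -0.62 by the scanner software and -0.15 with median centring, but 0.07 in the separate-channel model. CENPA fell by 0.36 (SE 0.03, 2 of 2 arrays, 1.28-fold lower, adjusted p 5.99e-06), with -0.34 by the scanner software and -0.08 with median centring, but 2.07 in the separate-channel model. CENPC1 rose by 0.41 (SE 0.03, 2 of 2 arrays, 1.33-fold, adjusted p 2.12e-06) and was positive under all 4 scalings. CENPM fell by 0.25 (adjusted p 5.16e-05, 2 of 2 arrays) and was negative under all 4 scalings. With the background fitted on every spot the CENPM arrays stood at -0.02 and -0.03, and the gene was not called. CENPN fell by 0.30 (adjusted p 2.16e-05, 2 of 2 arrays), with 0.11 for median centring. CENPB rose by 0.20 (adjusted p 0.00164, 2 of 2 arrays) and CENPH rose by 0.20 (adjusted p 0.000876, 2 of 2 arrays), and the separate-channel model gave -0.49 and -0.85. Not called were CENPE (0.06, adjusted p 0.0869, 2 of 2 arrays above 0), CENPK (-0.09, adjusted p 0.0961, 2 of 2 below) and CENPI (-0.01, adjusted p 0.856, 1 of 2 below).

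The change on adding Si306 was then compared between the doses, with both configurations on slide 2. For CENPA the arrays stood at -0.07 and -0.10 with 2 Gy and at -0.35 and -0.37 with 10 Gy. For CENPB they stood at -0.03 and 0.07 with 2 Gy and at 0.20 on both arrays with 10 Gy. In each gene the pairs did not overlap. Of the members, 1 was called higher and 1 lower, where 10.2% of all genes tested were called higher and 12.6% lower. At a 2-fold change limma called 0 members and 0.171% of all genes, and 3 members had an unadjusted p under 0.05. CENPA differed by -0.27 (SE 0.05, adjusted p 0.00342, 2 of 2 arrays at 10 Gy below both at 2 Gy), negative under all 4 scalings with -0.27, -0.43 and -0.20 in the other 3, but not called in the separate-channel model (adjusted p 0.0732). CENPB differed by 0.18 (SE 0.06, adjusted p 0.0496, 2 of 2 arrays at 10 Gy above both at 2 Gy) and was positive under all 4 scalings, but this call lies at the threshold. The adjusted p of CENPB was 0.0526 with every probe fitted and 0.0807 for median centring, the mean with its dim second probe gave -0.0035, and the call was lost without any 1 of the 4 arrays with Si306. Over all alternatives its adjusted p ran from 0.000514 to 1.00. With the background fitted on every spot limma called 0 members for this difference and 1.44% to 1.51% of all genes. There 1 member had an unadjusted p under 0.05, and CENPA differed by -0.11 (adjusted p 1.00, the highest of its alternatives, which ran from 1.57e-07). CENPF was not called (0.15, adjusted p 0.110, 2 of 2 arrays at 10 Gy above both at 2 Gy). The control of each configuration is the RNA of the same dose without Si306, so a difference between the doses also carries any difference between these controls.

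**Figure D3:**
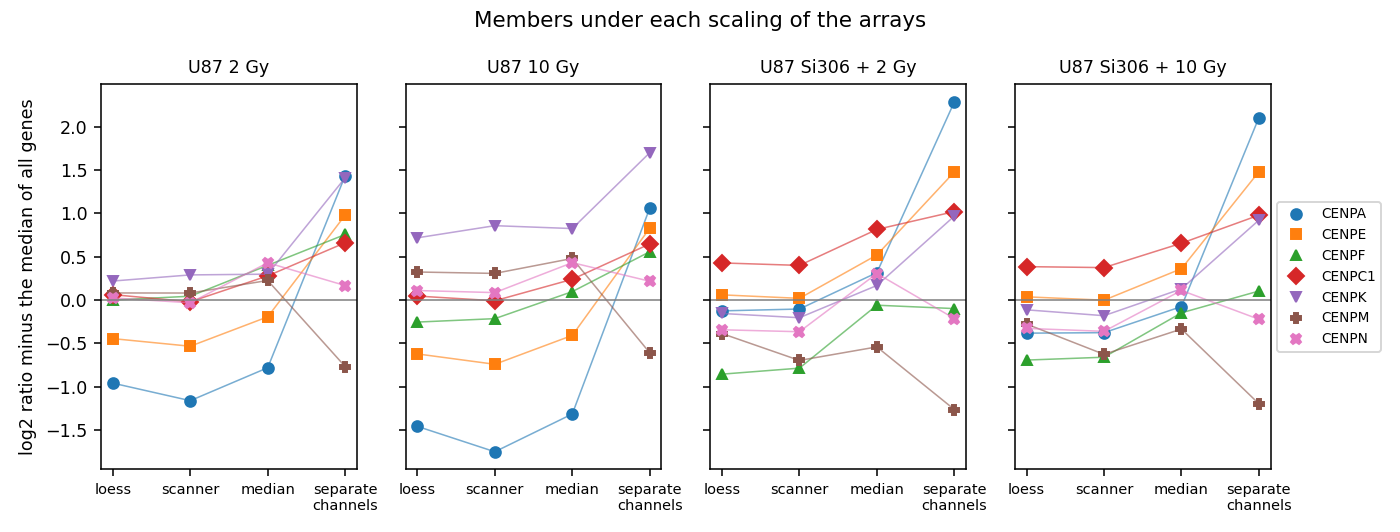
Log2 ratio minus the median of all genes (vertical axis) for 7 genes under loess, the scanner software, median centring and the separate-channel model, in each configuration. CENPA at U87 2 Gy is negative in the first 3 (-0.78 for median centring) and positive in the separate-channel model, while CENPK at U87 10 Gy is positive in all 4.

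Where a gene has more than 1 probe, the brightest stood for it, and the others were read beside it. The bright CENPF probe (mean log2 intensity 13.84) carried the fall with Si306, and the dimmer one (7.44), at chr1:211214634-211214693 on the + strand of hg17, gave -0.12 and -0.11 there. Its sequence is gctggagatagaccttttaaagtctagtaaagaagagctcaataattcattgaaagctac, and it gave -0.20 at U87 2 Gy and -0.31 at U87 10 Gy. The size of the CENPF change with Si306 therefore depended on the probe. With every probe fitted, the dimmer one was called lower at U87 2 Gy (adjusted p 0.000728 by limma) and the bright one was not called (0.701).

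For CENPN, the brightest probe, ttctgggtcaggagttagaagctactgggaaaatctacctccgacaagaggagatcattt, spans chr16:79611372-79613909 on the + strand of hg17. The next, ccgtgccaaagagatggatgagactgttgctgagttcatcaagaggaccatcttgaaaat, spans chr16:79598381-79603092 on the + strand. With Si306 this probe gave -0.56 and -0.54 at the 2 doses and the remaining, dimmest probe -0.32 and -0.28, so all 3 probes of CENPN lay below 0 with Si306 under loess, and under median centring the gene's sign turned. For CENPM the probe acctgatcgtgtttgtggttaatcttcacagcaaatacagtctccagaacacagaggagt spans chr22:40665789-40666456 on the - strand.

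The second CENPC1 probe gave 0.23 and 0.19 with Si306, the same sign as the first, but -0.25 and -0.22 at U87 2 Gy and U87 10 Gy, where the first gave 0.08 and 0.06. With every probe fitted, the second was called lower at U87 2 Gy (adjusted p 0.000362 by limma) and the first was not called (0.0616). The second CENPB probe was well above background in Cy3 on 0 of 8 arrays and the second CENPI probe on 5 of 8, so neither is given a direction. The CENPA probe lies at chr2:26928565-26928624 on the + strand of hg17, and the CENPE probe, printed on 10 spots of the array, at chr4:104384943-104385002 on the - strand.

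**Figure D4:**
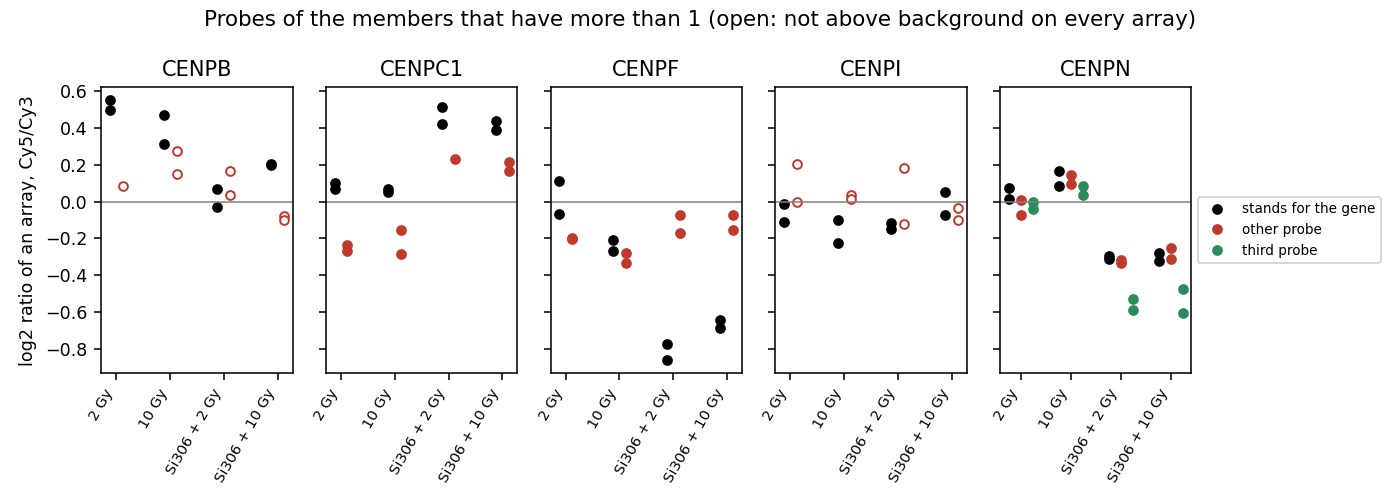
Log2 ratio of Cy5 over Cy3 after loess (vertical axis) on each array for every probe of CENPB, CENPC1, CENPF, CENPI and CENPN; open points are probes not well above background on every array. The 3 CENPN probes lie below 0 on the Si306 arrays, at means from -0.56 to -0.28, a sign that turns for the gene with median centring, and the dimmer CENPF probe lies at -0.12 and -0.11 where the brighter lies at -0.82 and -0.67, the latter positive in the separate-channel model.

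Related genes were read in lists written with earlier results of these data known. Calls in these lists are to be read against the shares of all genes called higher and lower, given above for each configuration. Calls and adjusted p-values of listed genes are those of the reported fit. They are not given here with the background fitted on every spot, where no member was called at U87 2 Gy and fewer of all genes were called in each configuration. Of 12 other genes with a CENP symbol or of the constitutive network, 2 were called higher and 1 lower at U87 2 Gy (median 0.02). At U87 Si306 + 2 Gy 3 were called higher and 7 lower (median -0.13), and at U87 Si306 + 10 Gy 4 higher and 5 lower (median -0.02). The all-gene medians were 0.02, 0.04 and 0.03. Relative to them the list's medians with Si306 turned to 0.18 and 0.13 with median centring and, over 10 of the genes, to 0.47 and 0.60 in the separate-channel model. ITGB3BP, a subunit of the network, rose by 0.65 at U87 2 Gy (1.57-fold, adjusted p 3.71e-08, 2 of 2 arrays), with 0.00 in the separate-channel model and positive values in the other scalings. CENPJ, which is in this list by its symbol, fell by 0.34 at U87 2 Gy (1.26-fold lower, adjusted p 8.01e-05, 2 of 2 arrays), with 1.34 in the separate-channel model.

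Of the 6 genes that load CENPA onto chromatin, 4 were called higher and 2 lower at U87 2 Gy (median 0.13), 1 higher and 3 lower at U87 Si306 + 2 Gy (median -0.12), and 2 higher and 3 lower at U87 Si306 + 10 Gy (median -0.02). Relative to all genes the medians with Si306 turned to 0.34 and 0.45 with median centring and to 0.56 and 0.78 in the separate-channel model. HJURP, the chaperone of CENPA, had 0.43 and 0.39 on the arrays of U87 2 Gy, where CENPA was negative. It rose by 0.41 (1.33-fold, adjusted p 1.35e-06, 2 of 2 arrays) and was positive under all 4 scalings, whereas at U87 10 Gy its arrays stood at 0.04 and 0.03. With Si306 it fell by 0.38 at 2 Gy (adjusted p 1.77e-06, 2 of 2 arrays) and by 0.21 at 10 Gy (adjusted p 0.000168, 2 of 2 arrays), with 0.38 and 0.62 in the separate-channel model.

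Of 9 genes of the microtubule-binding network of the outer kinetochore, 5 were called higher and 4 lower at U87 2 Gy (median 0.11), 2 higher and 3 lower at U87 Si306 + 2 Gy (median 0.02), and 4 higher and 2 lower at U87 Si306 + 10 Gy (median 0.11). Relative to all genes the medians with Si306 were -0.02 and 0.09 with loess and -0.03 and 0.11 by the scanner software. They were 0.38 and 0.38 with median centring and 0.59 and 0.75 in the separate-channel model. SPC25, a subunit of the network's NDC80 complex, rose by 0.40 at U87 2 Gy (adjusted p 3.11e-06, 2 of 2 arrays) under all 4 scalings. SPC25 fell by 0.55 with Si306 at 2 Gy (adjusted p 2.04e-07, 2 of 2 arrays) and by 0.72 at 10 Gy (adjusted p 5.09e-08, 2 of 2 arrays), with 1.10 and 0.96 in the separate-channel model. SPC24 of the same complex did not fall with it: it rose by 0.29 with Si306 at 2 Gy (adjusted p 0.00304, 2 of 2 arrays) and by 0.49 at 10 Gy (adjusted p 9.20e-05, 2 of 2 arrays), with -0.66 and -0.46 in the separate-channel model.

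Of the 6 inner centromere genes, 1 was called higher and 2 lower at U87 2 Gy (median 0.02), 2 higher and 3 lower at U87 Si306 + 2 Gy (median -0.11), and 2 higher and 3 lower at U87 Si306 + 10 Gy (median -0.04). The medians with Si306 turned, relative to all genes, to 0.27 and 0.15 with median centring and to 0.23 and 0.33 in the separate-channel model, and that at U87 2 Gy was -0.02 by the scanner software. Of 13 genes of the spindle checkpoint and corona, 3 were called higher and 6 lower at U87 2 Gy (median 0.03), 1 higher and 8 lower at U87 Si306 + 2 Gy (median -0.15), and 3 higher and 6 lower at U87 Si306 + 10 Gy (median -0.08). Here too the medians with Si306 turned, to 0.18 and 0.22 relative to all genes with median centring and, over 10 of the genes, to 0.83 and 0.92 in the separate-channel model, and that at U87 2 Gy was -0.07 by the scanner software. ZWINT, a protein of the outer kinetochore, fell by 0.51 at U87 2 Gy (adjusted p 8.48e-07, 2 of 2 arrays), with 1.09 in the separate-channel model. ZWINT fell by 0.81 with Si306 at 2 Gy (1.75-fold lower, adjusted p 2.53e-08, 2 of 2 arrays), with -0.17 for median centring and 0.76 for the separate-channel model. BUB1B, a kinase-like protein of the checkpoint, fell by 0.59 at U87 2 Gy (1.51-fold lower, adjusted p 2.76e-06, 2 of 2 arrays), with 0.85 in the separate-channel model.

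The 2 genes of replacement histone H3, the non-centromeric relatives of CENPA, were both called higher at U87 2 Gy (median 0.43). H3F3A rose by 0.61 (1.52-fold, adjusted p 7.29e-07, 2 of 2 arrays) and H3F3B by 0.26 (adjusted p 7.24e-05, 2 of 2 arrays), both positive under all 4 scalings. With Si306, 1 of the 2 was called lower at 2 Gy (median -0.40) and 2 of 2 at 10 Gy (median -0.50), and both medians were positive with median centring (0.55 and 0.14).

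Of 10 proliferation genes, expressed mostly in G2 and mitosis, 10 were called lower at U87 2 Gy (median -0.36), 9 lower at U87 Si306 + 2 Gy (median -0.31), and 8 lower and 1 higher at U87 Si306 + 10 Gy (median -0.28). Whether these calls hold with the background fitted on every spot is not given here. Median centring gave -0.10, 0.18 and 0.08 for these medians and the separate-channel model, over 9 of the genes, 0.58, 0.78 and 0.82, so the sign with Si306 depended on the scaling. CCNB1, the mitotic cyclin, fell by 0.54 at U87 2 Gy (1.46-fold lower, adjusted p 8.01e-07, 2 of 2 arrays), with 0.39 in the separate-channel model. The median of this list at U87 10 Gy was -0.60, without a test, and 0.39 in the separate-channel model. CENPA lay below the list's median in U87 2 Gy and U87 10 Gy under loess, and no phase of the cycle was measured.

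Of 6 housekeeping genes, 3 were called higher and 1 lower at U87 2 Gy (median 0.11), 3 higher and 2 lower at U87 Si306 + 2 Gy (median 0.04), and 1 higher and 2 lower at U87 Si306 + 10 Gy (median 0.01). Of 5 glioma line genes that passed the filter, the calls were 1 higher and 2 lower at U87 2 Gy, 1 higher and 2 lower at U87 Si306 + 2 Gy, and 3 higher and 1 lower at U87 Si306 + 10 Gy. Of 3 markers of other cell types that passed, 2 were called higher at U87 2 Gy and 3 in each Si306 configuration. At U87 2 Gy all 3 were below 0 with median centring, and PECAM1, dim on slide 1, passed through slide 2. EPCAM rose by 0.33 with Si306 at 2 Gy (adjusted p 6.24e-05, 2 of 2 arrays) and was positive under all 4 scalings. With the share of called genes over the whole array as high as given above, calls in such lists are frequent.

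**Figure D5:**
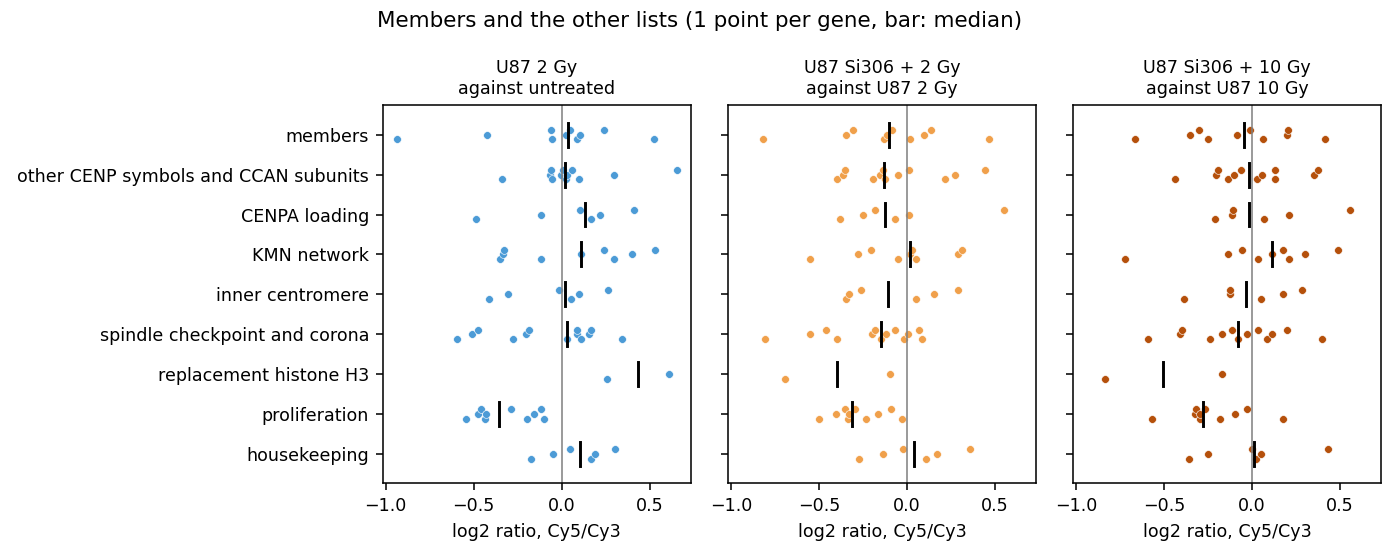
Log2 ratio of Cy5 over Cy3 after loess (horizontal axis) of each gene (points) in the members and the lists named on the vertical axis, with bars at list medians, in the 3 tested comparisons. The proliferation genes have medians of -0.36, -0.31 and -0.28, and these turn positive in the separate-channel model (0.58, 0.78 and 0.82) and, with Si306, for median centring (0.18 and 0.08).

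Among 21207 genes with a value on all 8 arrays, the nearest to CENPA by Euclidean distance over the log2 ratios included POGZ (0.65), SMS (0.68), KIF20A (0.70), PBEF1 (0.72), TXNRD1 (0.76), NR1D2 (0.78) and CRI1 (0.83), with 3 further transcripts listed by a sequence identifier alone. The median distance of all genes was 2.59. KIF20A encodes a mitotic kinesin, POGZ a zinc finger protein that binds heterochromatin protein, SMS spermine synthase and TXNRD1 a thioredoxin reductase. Of the members, CENPE was the nearest, at place 284 of 21206 with a distance of 1.53, and CENPK the farthest, at place 20263 with 3.53. Distances were computed on loess values, describe these arrays alone, and include the U87 10 Gy arrays on which CENPA was selected.

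The promoter windows came from RefSeq on GRCh38.p14, 250 bases before and 50 after the start, and 8 of the 10 members were matched, all but CENPH and CENPM. Searched on both strands, with no overlapping matches in the members, were the CHR letters TTTGAA and TTTAAA, the letters CCAAT, and the E2F letters TTTCCCGC, TTTCGCGC, TTTGCCGC and TTTGGCGC. A CHR match was present in 5 of 8 members (CENPA, CENPC1, CENPE, CENPF and CENPN), against 24.0% of 35116 promoters. CCAAT was present in 5 of 8 (CENPA, CENPC1, CENPF, CENPK and CENPN), against 34.6%, and an E2F match in 1 of 8 (CENPA), against 3.31%. By letters the shares of all promoters were 15.2% for TTTGAA, 12.2% for TTTAAA, 1.63% for TTTCCCGC, 0.515% for TTTCGCGC, 0.607% for TTTGCCGC and 0.652% for TTTGGCGC. In the proliferation list 7 of 8 matched promoters held a CHR match and 8 of 8 CCAAT. Among other genes with a CENP symbol and network subunits these were 1 of 10 and 4 of 10, and among genes that load CENPA 1 of 4 and 4 of 4. The outer kinetochore list had 3 of 8 and 4 of 8, the inner centromere list 3 of 5 and 5 of 5. The list of spindle checkpoint and corona had 6 of 10 for each. A match is a description and not a site.

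The CENPA window before the start, chr2:26785806-26786055 on the + strand, holds all 3 kinds of match, in capitals: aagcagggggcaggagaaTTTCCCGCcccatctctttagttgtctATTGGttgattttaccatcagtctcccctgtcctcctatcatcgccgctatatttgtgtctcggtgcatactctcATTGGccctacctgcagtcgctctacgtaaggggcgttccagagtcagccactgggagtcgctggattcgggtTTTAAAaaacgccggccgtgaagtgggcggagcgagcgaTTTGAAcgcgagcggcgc. The E2F letters begin at -232 from the start, the CCAAT letters (on the other strand) at -205 and -130, and the CHR letters at -57 and -18. The CENPE window, chr4:103198344-103198593 on the - strand, holds TTTAAA at -195, -68 and -62: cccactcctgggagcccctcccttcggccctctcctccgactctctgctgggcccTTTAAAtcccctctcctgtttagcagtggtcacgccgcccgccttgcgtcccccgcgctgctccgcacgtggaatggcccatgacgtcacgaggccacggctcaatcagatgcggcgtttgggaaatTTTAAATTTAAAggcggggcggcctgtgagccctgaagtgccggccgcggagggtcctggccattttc. CENPA and CENPE, lowest of the members at U87 2 Gy and U87 10 Gy under loess and above 0 in the separate-channel model, both hold CHR letters. So do CENPC1, CENPF and CENPN, which were not called at U87 2 Gy on their brightest probes. With every probe fitted, the second probes of CENPC1 (-0.25) and CENPF (-0.20) were called lower there (limma, adjusted p 0.000362 and 0.000728). The other CENPN probes were not called (-0.02 and -0.03).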

How the data were processed

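RNA in 4 configurations was measured on Agilent whole human genome 4x44K arrays, read from 24 scans of 8 arrays, 3 for each. Per the file headers, the scans were read by Agilent Feature Extraction 9.5.3.1 into mean signal intensity on a linear scale and a log10 ratio of Cy5 over Cy3, both written with decimal commas. The deposited series matrix holds the same log10 ratio, within 0.00500. Of 43376 gene spots a scan, 2.98% to 5.73% carried an outlier mark of spot or local background and were left out before background correction (limma normexp, offset 50), loess within each scan, and means over spots and over the scans of an array. This order was chosen after values of a first fit were seen. Left out were the 2 scans that lie on an array of another dose than their label gives, so 22 were used. A probe was kept (30316 of 41000) where 2/3 or more of some configuration's arrays had Cy3 or Cy5 well above background, and the brightest stood for each of 22847 gene names. limma 3.58.1 (lmFit, eBayes, two-sided; R 4.3.3, statmod 1.5.0) gave a mean for each configuration, with 4 residual and 6.58 prior degrees of freedom, and p-values were adjusted by Benjamini-Hochberg over all gene names, calls being made at 0.05. The array number, 2 for each configuration, limits the precision. The fit was tested on simulated data. U87 10 Gy has no test. Members and lists were chosen with earlier results of these data known. Named are all members, the 2 lowest and 2 highest genes of a list, of which some are given, and the 10 genes nearest to CENPA. The results were computed in 16 other ways, and 2 more and the array's older symbols for listed genes were added after values were seen.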

Additional observations from a re-analysis of the deposited data

Results flagged for a closer look

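The change on adding Si306 differed between the doses for CENPA by -0.27 (log2, 10 Gy minus 2 Gy, adjusted p 0.00342 by limma, with 2 of 2 arrays at 10 Gy below both at 2 Gy), a sign kept under all 4 scalings. The call was lost in the separate-channel model (adjusted p 0.0732) and with the background fitted on every spot, where CENPA differed by -0.11 (adjusted p 1.00), and over the other alternatives its adjusted p ran from 1.57e-07 to 0.0312. For CENPB the difference was 0.18 (adjusted p 0.0496, with 2 of 2 arrays at 10 Gy above both at 2 Gy), also positive under all 4 scalings. The mean with its second probe gave -0.0035, and that probe alone gave -0.19. Neither is weighed, the probe being well above background in Cy3 on 0 of 8 arrays, though in Cy5 on 6. The CENPB call lies at the threshold: it was lost with offset 10 (adjusted p 0.0816), without the filter (0.0862), for median centring (0.0807), with every probe fitted (0.0526), with the background fitted on every spot (1.00) and without any 1 of the 4 arrays with Si306 (0.0597 to 0.260), with 0.000514 the lowest value of any alternative.

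CENPH had a mean of -0.0541 at U87 2 Gy (not called, adjusted p 0.245) and 0.21 at U87 10 Gy, with opposite signs on every array of the 2 doses under loess. With median centring it was positive at both doses, and in the separate-channel model negative at both. With the background fitted on every spot the 2 arrays at U87 2 Gy stood at -0.0034 and 0.0190, so the opposite signs were lost. This difference was not tested.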

How the results depend on the processing

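Each configuration lies on 1 slide, so a fit on the arrays of that slide alone cannot move a mean and tests no direction. Only the variance can change, and the results tested stayed on the same side of the threshold. Slide as a random block had an estimated correlation of 0, so that fit equals the reported one and tests nothing. Leaving out 1 array at a time gave counts of 4 to 5 for U87 2 Gy, 4 to 9 for U87 Si306 + 2 Gy, 7 to 8 for U87 Si306 + 10 Gy and 1 to 2 for the dose difference (1 without any array with Si306), and a median of 0.08 to 0.11 at U87 10 Gy. A lone array is then assumed to vary like the others. Without U87 Si306 + 2 Gy array 1 or 2 fewer members were called there, and fewer of all genes.

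With the background fit on every spot, added after values were seen and run with all marked spots left out afterwards or with those marked for their local background alone kept, limma in both cases called 0 members at U87 2 Gy (unadjusted 0), 3 at U87 Si306 + 2 Gy, 3 at U87 Si306 + 10 Gy and 0 for the dose difference (unadjusted 1). With the latter spots kept, 13.4%, 25.7%, 16.1% and 1.51% of all genes were called in these comparisons, against 57.2%, 66.5%, 62.4% and 22.7% in the reported fit. In that alternative the CENPA values were -0.44 and -0.15 on the arrays of U87 2 Gy and -1.41 and -0.20 on those of U87 10 Gy, so the arrays of a configuration lay far apart. The cause was not tested.

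At U87 2 Gy the count of 5 became 8 with median centring, 9 in the separate-channel model and 8 with scans as samples and the disagreeing scans kept, while scans as samples alone gave 6 or 7, so the move is not put down to the kept scans. The share of all genes called rose too, from 57.2% to 85.4% with median centring, 81.1% in the separate-channel model and 69.5% with those scans kept. Scans as samples alone gave 58.5% or 69.8%. For the dose difference the count of 2 became 1 with offset 10, with no filter, with the mean of the probes and with every probe fitted, 6 with median centring, 6 with scans as samples in a replicate block, and 4 with scans as samples and the disagreeing scans kept, neither of which lies on an array with Si306. The share of all genes called for this difference moved the same way in each of these alternatives. It was below that of the reported fit where the count fell and above it where the count rose. In the replicate block, where replicate numbers gave no evidence of pairing (median r 0.00156 for equal and 0.00165 for different numbers), the other counts were 7, 9 and 9. Of all genes 69.8%, 79.5% and 77.1% were called there. The median at U87 10 Gy became 0.0367 with the scanner ratio and 0.0166 with the mean of the probes. It became 0.56 in the separate-channel model and, before subtraction of the all-gene median, 0.56 with median centring (0.33 after it). The cause was not tested.

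The separate-channel model reversed at U87 2 Gy CENPA (1.39), CENPB (-0.20), CENPE (0.93), CENPI (1.22) and CENPM (-0.81). At U87 10 Gy it reversed CENPA (1.02), CENPB (-0.29), CENPE (0.78), CENPF (0.51), CENPH (-0.86), CENPI (1.18) and CENPM (-0.65). At U87 Si306 + 2 Gy it reversed CENPA (2.27), CENPB (-0.70), CENPH (-0.85), CENPI (1.17) and CENPK (0.95), and at U87 Si306 + 10 Gy CENPA (2.07), CENPB (-0.49), CENPF (0.0724), CENPH (-0.85), CENPI (1.31) and CENPK (0.89). The model takes the level of an RNA in Cy3 on slide 2 minus that in Cy5 on slide 1 as a dye effect, and for CENPA that was 2.18 at 2 Gy and 2.60 at 10 Gy.

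Median centring, before subtraction of the all-gene median, reversed CENPE (0.0776) and CENPH (0.51) at U87 2 Gy and CENPF (0.32) at U87 10 Gy. At U87 Si306 + 2 Gy it reversed CENPA (0.75), CENPF (0.38), CENPI (0.32), CENPK (0.60) and CENPN (0.74), at U87 Si306 + 10 Gy CENPA (0.19), CENPF (0.11), CENPI (0.32), CENPK (0.39) and CENPN (0.37), and for the dose difference CENPF (-0.26), CENPK (-0.21) and CENPN (-0.37). The mean of the probes reversed CENPC1 (-0.0835) and CENPF (-0.0895) at U87 2 Gy, CENPC1 (-0.0785) at U87 10 Gy and CENPB (-0.0035, with a dim second probe) for the dose difference. The scanner ratio reversed CENPC1 (-0.0104) at U87 10 Gy and CENPB (-0.12) at U87 Si306 + 2 Gy. The cause was not tested.

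Signal over background limits the second probes of CENPB and CENPI, and 57.3% to 66.5% of probes in Cy3 and 63.4% to 74.7% in Cy5 were well above background in a scan.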

Other observations

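Summed over the 6 markers of other cell types, the log2 intensity was 8.74 to 8.86 in the 8 channel readings of slide 1, where the CD3E probe was the brightest at no more than 6.72, and 11.32 to 11.77 in those of slide 2, where that of TACSTD1 (EPCAM) was. Brightness of probes does not rank transcripts. The 6 glioma line markers summed to 17.19 to 17.87 over both slides, with the VIM probe the brightest. GFAP read 6.62 and 7.03 in the 2 Gy RNA of slide 1 and 8.42 on both arrays in that of slide 2. Whether the slides hold RNA of different cultures, stocks or preparations is not given in the sources used here and was not tested.

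The 2 Gy RNA on slide 2 minus that on slide 1 differed by 1.30 for CENPE, 1.31 for CENPI and 1.23 for CENPK, and by -0.86 for CENPH, -0.81 for CENPM and -0.78 for CENPB, with a mean level for each slide over 2 arrays and the dyes exchanged between the slides.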
